A study of Mus musculus with 14 samples.

Results

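Mouse embryonic fibroblasts, connective tissue cells grown from mouse embryos, were kept for 6 h either in medium without amino acids or in medium without glucose, and the total RNA of the 2 starvations was compared over all genes. The comparison rests on 4 of the 14 libraries of the series, 2 for each starvation, taken by their labels and not by any measured value. The remaining 10 libraries were 2 of control cells collected at 0 h, and 2 of each starvation at 3 h and 2 at 12 h. Cells of both starved groups were plated in high glucose medium, left to settle for a day, washed, given starvation medium with dialyzed serum, lifted with trypsin and frozen in DMSO with dialyzed serum. They therefore shared all stated handling and differed in the nutrient left out. The medium of control cells was left as it was, and ordinary serum served for freezing them, so that their levels are set beside the starved ones without a test. The labels name no strain or genotype. Nor do they state that both libraries of a condition stem from separate cultures, so each p-value here rests on the spread of these samples alone, and that spread may be technical.

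Both kinds of starvation reach the transcription factor ATF4. Lack of amino acids leaves transfer RNAs uncharged, which activates the kinase GCN2, slows general translation through the factor eIF2 and favours translation of ATF4, which drives genes of amino acid uptake, amino acid synthesis and tRNA charging. Glucose feeds glycolysis and also the sugar chains that are attached to proteins in the endoplasmic reticulum (ER). Its loss disturbs folding there and sets off the unfolded protein response, in which ATF6 and XBP1 raise ER chaperones and the kinase PERK acts on eIF2 as GCN2 does. Genes of cholesterol and fatty acid synthesis are driven by the SREBP factors, and growth signals by way of mTORC1, a kinase complex that senses amino acids, support SREBP activity and restrain autophagy, the breakdown of cell contents in lysosomes.

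After amino acid starvation the libraries held 42352167 and 55349659 reads, and after glucose starvation 35829306 and 42380978, with 1 transcript standing for each gene. Levels are CPM, read counts relative to the library's total, with that total scaled by TMM factors, which centre the bulk of genes. Sums over marker lists are the exception, as they use library totals without these factors. Of 15 fibroblast markers, Thy1 and Lum were at 0 in all 4 libraries and in both controls, whereas Col1a1, Col1a2 and Fn1 were abundant. Markers of 7 other cell types included defining genes at 0 in every one of these libraries, among them Ptprc and Adgre1 of macrophages, Tie1 and Erg of endothelium, Sox2 and Olig2 of neural cells, and Krt5 of epithelium. Other members of these lists were read, and some differed between the starvations. The neural list summed to 185 and 193 CPM without amino acids and to 334 and 322 without glucose, mostly Nes, which was lower by test (-0.79). Krt19 was lower (-1.41), with epithelial sums of 9.89 and 9.83 CPM against 24.6 and 25.2, and Kdr was higher (0.35), with endothelial sums of 25.7 and 26.2 against 18.7 and 17.6. Csf1r made up most of the macrophage sums of 25 and 25.2 against 26.5 and 26 and was not called (-0.04). The part of other cells in the results was not tested. In bulk RNA, fewer cells of a type and less RNA per cell cannot be told apart. Reads mapped to genes of the mitochondrial genome made up 4.86% and 4.98% of the amino acid libraries against 6.22% and 6.42% of the glucose libraries. The 50 most abundant genes took 12.6% of reads in both amino acid libraries, and 16.1% and 16.3% in the glucose libraries.

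The 2 starvations left the cells with widely different transcriptomes. Of 17696 genes tested, 11294 (63.8%) passed an adjusted p of 0.05 in edgeR's quasi-likelihood test, 5572 (31.5%) higher and 5722 (32.3%) lower under amino acid than under glucose starvation. At least 2-fold differences were called for 4124 genes (23.3%), 2165 (12.2%) higher and 1959 (11.1%) lower. The median difference of all genes was -0.01 on the log2 scale. Differences are given throughout as log2 of amino acid over glucose starvation, so that a positive value is higher without amino acids. With so large a share called, each gene group below is read against 31.5% higher, 32.3% lower and a median near 0. Genes called at least 2-fold higher had a median transcript length of 2822 bases and a GC content of 49.4%, and those called at least 2-fold lower 2264 bases and 52%, against 2604 bases and 50.1% for all tested genes.

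**Figure D1:**
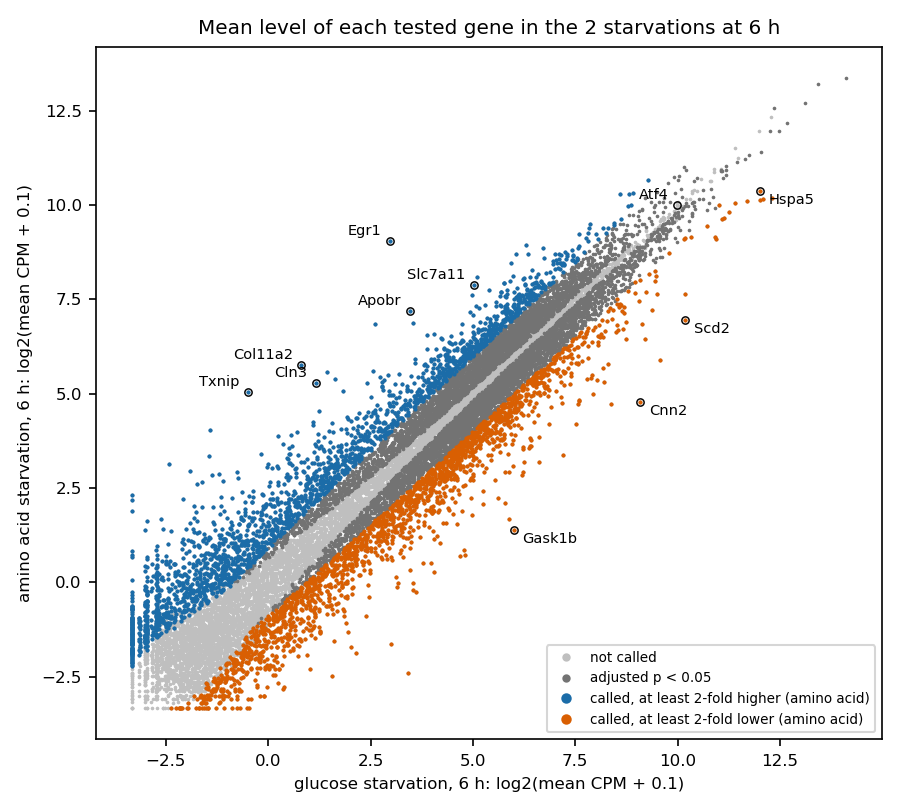
Mean level of each tested gene after 6 h of glucose starvation (horizontal axis) and of amino acid starvation (vertical axis), both as log2 of CPM plus 0.1, which keeps genes at 0 on the plot. Blue and orange points are the 2165 and 1959 genes called at least 2-fold higher and lower under amino acid starvation, dark grey points other called genes and light grey points genes not called. Atf4 lies on the diagonal and Hspa5 and Scd2 below it.

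The gene with the highest difference among those at a mean log2 CPM of at least 3 was Egr1, an immediate early transcription factor, with 532 and 525 CPM without amino acids and 7.59 and 7.97 without glucose. The control libraries held 82.1 and 82.6, so that the amino acid libraries lay above and the glucose libraries below them. The difference was 6.08 (standard error 0.08, edgeR adjusted p = 5.62e-30). Next came Col11a2, a fibrillar collagen chain typical of cartilage, at 53.6 and 54.4 CPM against 1.73 and 1.58, and the lysosomal membrane protein Cln3 at 39.7 and 37.9 against 1.78 and 2.5. Both were near their glucose-starved level in control cells, with 2.38 and 2.83 CPM of Col11a2 and 1.77 and 1.53 of Cln3. The other 7 of the 10 highest were Apobr, a lipoprotein receptor, with a difference of 3.75, Psd at 3.36, Mast1 at 3.30, Arap2 at 3.06, Maff, a small MAF transcription factor, at 3.01, Tcp11l2 at 2.90 and the cystine carrier Slc7a11 at 2.86.

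At the other end, Gask1b differed by -4.67 and Cnn2, the actin-binding protein calponin 2, by -4.33. Cnn2 was read at 27 and 27.3 CPM without amino acids and at 536 and 552 without glucose, and the control libraries, at 352 and 340, lay between. Cyp1b1, a cytochrome P450, followed at -4.25, then Dlk2 at -3.70, the coagulation initiator F3 at -3.42, Nsdhl, an enzyme of sterol synthesis, at -3.39 and Ripor2 at -3.39. F3 was likewise below the control in the amino acid libraries, with 8.86 and 9.27 CPM against 16.5 and 15.1, and above it in the glucose libraries, with 97.9 and 96.4.

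**Figure D2:**
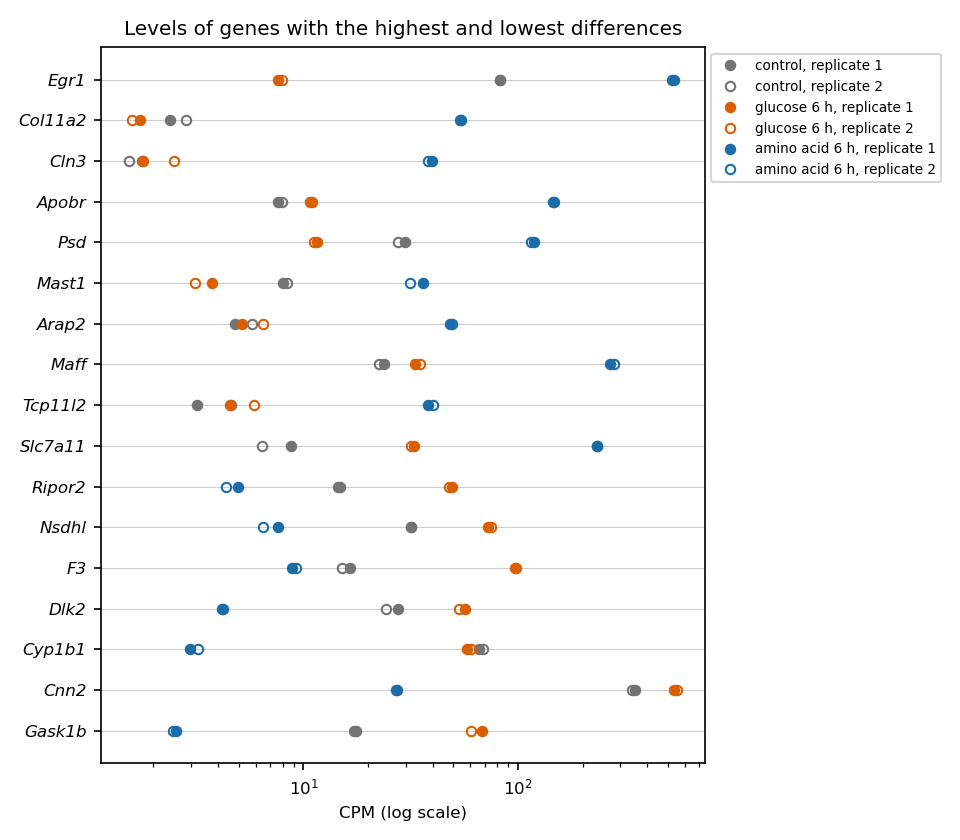
CPM on a log axis of the 10 genes with the highest difference and of 7 of those with the lowest, for each control (grey), glucose (orange) and amino acid (blue) library, with the first replicate filled and the second open. In all 17 genes both amino acid libraries lie on one side of both glucose libraries, which the rule that chose these genes required and which holds for 81.9% of all tested genes. Egr1 is highest and Gask1b lowest in order of the difference.

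Targets of ATF4 were mostly higher without amino acids, although Atf4 mRNA was at a similar level in both starvations. Atf4 was read at 1014 and 1031 CPM without amino acids and at 994 and 1027 without glucose, overlapping ranges above the 304 and 314 CPM of the controls. Its difference of 0.02 (standard error 0.05, edgeR adjusted p = 0.795) did not pass the test, which does not show that the levels are equal, and it was 0.13 (edgeR adjusted p = 0.00377) after correction for GC content and length. Of 34 listed ATF4 targets, all tested, 28 were higher and 1 was lower, and their median difference was 0.78. The lower gene was Ddit3, which encodes the transcription factor CHOP, at 92.8 and 105 CPM against 124 and 125. Those not called were Cbs, Pck2, Eif4ebp1, Stc2 and Cebpb, the last of them at 48.7 and 87.2 CPM against 38.9 and 33.8, a wide spread between the amino acid libraries.

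Asns, asparagine synthetase and a classic ATF4 target, stood at 786 and 795 CPM without amino acids, at 385 and 399 without glucose and at 97.1 and 99.4 in control cells. The 3 conditions did not overlap, and the difference between the starvations was 1.01 (standard error 0.05, edgeR adjusted p = 2.72e-16). Trib3, a pseudokinase that restrains ATF4, was at 349 and 345 CPM against 148 and 149, and at 7.7 and 6.07 in control cells. Larger differences belonged to Slc7a11, which imports cystine for glutathione, with 234 and 233 CPM against 32.8 and 31.7, to the transcription factor Atf5 with 493 and 481 against 77.4 and 79.5, and to the stress protein Nupr1 with 278 and 282 against 62.6 and 62.6. Chac1, which degrades glutathione, and Sesn2, a leucine sensor that restrains mTORC1, differed by only 0.42 and 0.31. Atf3, a stress-induced repressor, was 1.0 higher, with 85.1 and 83.4 CPM against 40.4 and 43.8. In every one of the genes in this paragraph for which control levels are given, both starved groups lay above the control.

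The promoters of these genes were read to show the letters that ATF4 and its C/EBP partners are known to bind. The C/EBP-ATF element was searched as TGATGNAA on both strands, from 250 bases before to 50 after the start of transcription, in promoter sequences from RefSeq of build GRCm38.p6. It stood in 11 of the 32 ATF4 targets with a promoter in the table (34.4%), against 4.51% of all 27025 genes with a promoter and 2.85% of the tested genes. Among genes called at least 2-fold higher 5.63% held it, and among those called at least 2-fold lower 2.42%. A match describes letters only, and no match says only that these letters are not in the window. Of the targets named above, Asns, Slc7a11, Nupr1, Trib3, Chac1, Atf3 and Pck2 held the element. Pck2 was not called (-0.04). Atf5, with a difference of 2.63, Sesn2, Cbs, Stc2, Cebpb and the lower gene Ddit3 had no match to these letters. For Eif4ebp1 there was no promoter sequence. Asns, Slc7a11 and Nupr1, which have a match before the start, are shown 5′ to 3′ along the gene with the matches in capitals. Asns lies on the minus strand at chr6:7693210-7693257, Slc7a11 on the minus strand at chr3:50443628-50443704 and Nupr1 on the minus strand at chr7:126625548-126625605. The Asns match ends 16 bases before the start, the Nupr1 match lies on the other strand, and Slc7a11 has 2 matches that face each other.
Asns: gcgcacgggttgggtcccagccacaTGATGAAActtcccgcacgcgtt
Slc7a11: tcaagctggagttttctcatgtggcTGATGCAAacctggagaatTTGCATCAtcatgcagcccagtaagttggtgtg
Nupr1: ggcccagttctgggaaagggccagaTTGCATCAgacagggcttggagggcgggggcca

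Genes that bring amino acids into the cell were higher more often than lower without amino acids. Of 22 transporters tested, 13 were higher and 3 lower, with a median of 0.56, or 0.86 without genes whose exons overlap another gene. Slc7a1, a carrier of arginine and lysine, was read at 1258 and 1237 CPM against 388 and 383, and at 110 and 111 in control cells, and differed by 1.69. Slc38a2, the starvation-inducible carrier of small neutral amino acids, was at 1627 and 1641 CPM against 623 and 621, and Slc1a4, which carries serine and alanine, at 276 and 265 against 93.1 and 93.4. None of these ranges overlapped between the starvations, as was so for 81.9% of all tested genes. Slc7a5, which exchanges large neutral amino acids, differed by only 0.40. The 3 lower members were Slc43a1, Slc7a2 and Slc6a6, with differences of -1.37, -1.16 and -0.34, named after their values were seen.

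Enzymes of amino acid synthesis followed in part. In the list of serine and one-carbon synthesis 11 of 13 tested members were higher and 2 lower, with a median of 0.36. Mthfd2, the mitochondrial folate enzyme, was at 615 and 609 CPM against 329 and 339. Mthfd1, its cytosolic relative, went the other way, at 109 and 106 CPM against 198 and 192. Psat1, of serine synthesis, differed by 0.66. Among 17 enzymes of asparagine, proline, glutamine and cysteine metabolism, 8 were higher and 5 lower.

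Enzymes that charge transfer RNAs were divided by enzyme and by compartment. Of 23 cytosolic aminoacyl-tRNA synthetases and their partners 9 were higher and 8 lower, against 31.5% and 32.3% of all genes. Iars, for isoleucine, was at 1048 and 1005 CPM against 456 and 468, Tars, for threonine, at 1152 and 1161 against 577 and 595, and Nars, for asparagine, at 1304 and 1311 against 707 and 732. Kars, for lysine, had the reverse order, with 151 and 155 CPM against 321 and 332. Of 17 mitochondrial synthetases 2 were higher and 11 lower, with a median of -0.60, or -0.32 without overlapping genes. Cars2, for cysteine, and Rars2, for arginine, differed by -1.46 and -1.13.

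Factors that set the signal through eIF2 differed among themselves. Among 15 listed regulators of the integrated stress response, 3 were higher and 7 lower. Ppp1r15b, which directs the phosphatase that restores eIF2, was at 343 and 340 CPM against 141 and 149. Its stress-induced relative Ppp1r15a, counted among the ATF4 targets and not in this list, was at 421 and 418 against 136 and 140. Eif2b3, a subunit of the exchange factor that eIF2 phosphorylation blocks, was at 18.3 and 17.4 CPM against 47 and 45.5. Impact, an inhibitor of GCN2, was at 60.1 and 58.9 against 124 and 131. The gene of GCN2 itself, Eif2ak4, had a difference of -0.03 and was not called. Of 15 inhibitors of mTORC1 and amino acid sensors 7 were higher and 4 lower, with Akt1s1, the mTORC1 inhibitor PRAS40, at 172 and 189 CPM against 65.3 and 63.6, and the arginine sensor Castor1 at 1.32 and 1.52 against 4.6 and 3.99.

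**Figure D3:**
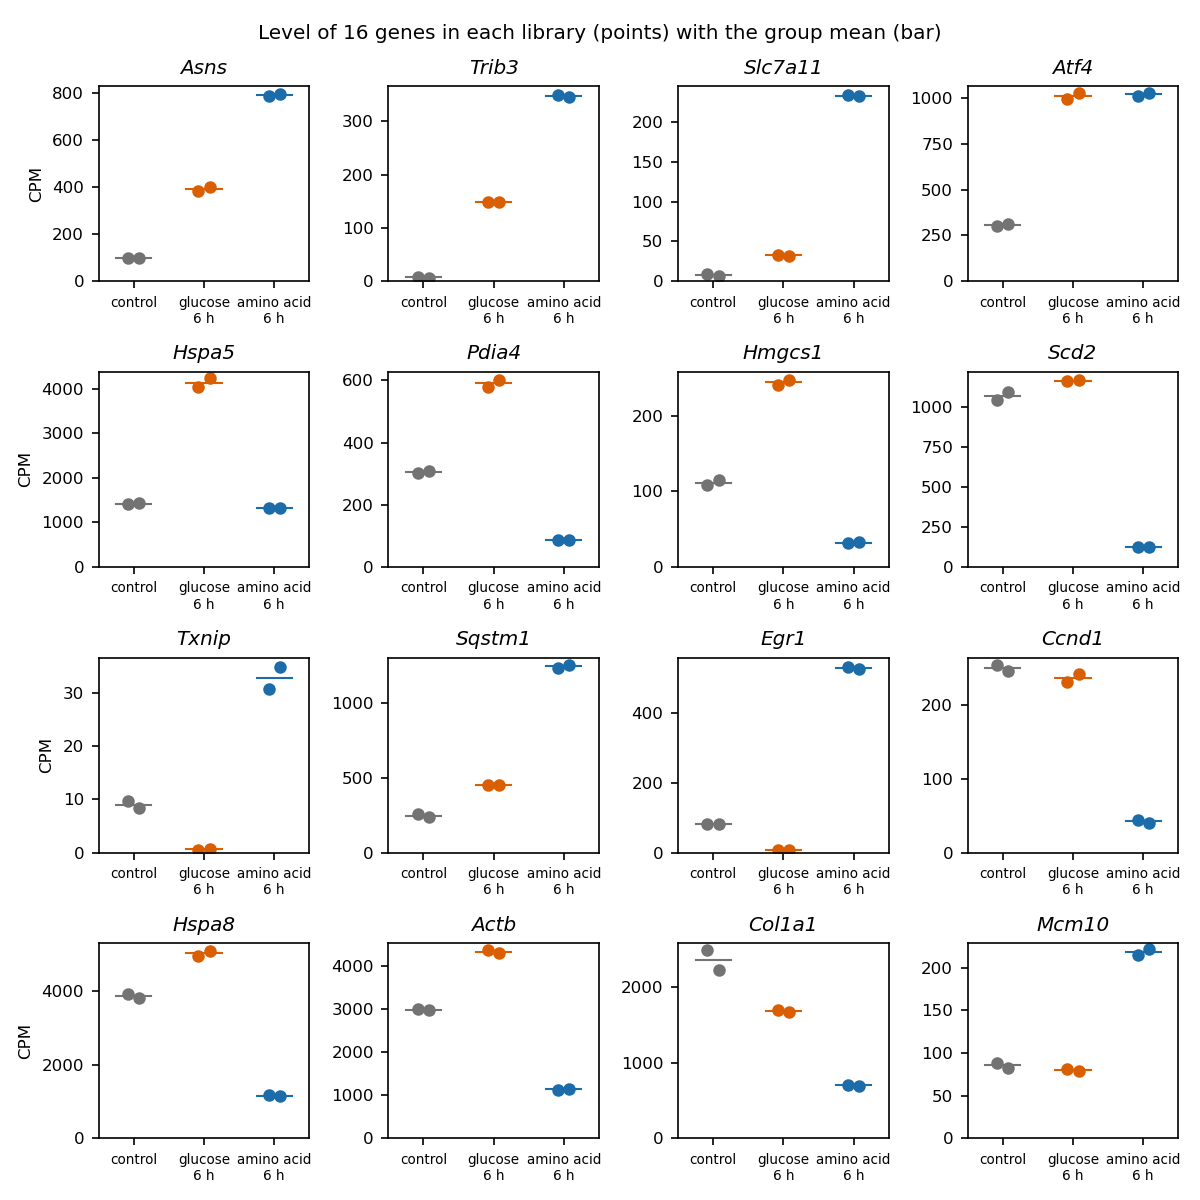
CPM on a linear axis from 0 of 16 genes in each of the 2 control (grey), glucose (orange) and amino acid (blue) libraries, with a bar at the group mean. The starved groups overlap for Atf4 and are apart for the other 15 genes, with Asns, Trib3, Slc7a11, Txnip, Sqstm1, Egr1 and Mcm10 higher and the other 8 lower without amino acids. They are apart for 81.9% of all tested genes.

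Chaperones and folding enzymes of the ER were lower without amino acids than without glucose almost throughout. Of 22 members 20 were lower, 13 of them at least 2-fold, and 2 were higher, with a median of -1.16. Hspa5, which encodes the main ER chaperone BiP, was at 1326 and 1313 CPM without amino acids, at 4040 and 4240 without glucose and at 1413 and 1424 in control cells. The glucose libraries stood far above the other groups, and the difference between the starvations was -1.65 (standard error 0.05, edgeR adjusted p = 7.86e-21). Pdia4, a disulfide isomerase, was at 87.9 and 86.9 CPM against 579 and 602, with 302 and 307 in control cells. Sdf2l1, an ER protein that works with BiP, had the lowest value of the list, at 8.69 and 9.47 CPM against 74.1 and 76.7, with 32.8 and 27.6 in control cells. For Pdia4 and Sdf2l1 the amino acid libraries lay below the control and the glucose libraries above it.

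Hsp90b1, the ER form of HSP90, differed by -1.60, the disulfide isomerase Pdia6 by -2.16 and Creld2 by -2.14. Canx and Erp44 had the smallest called differences below 0, at -0.55 and -0.51. The 2 higher members were Dnajb9, a BiP co-chaperone, at 45.9 and 46.4 CPM against 22.5 and 20.8 with 8 and 10.4 in control cells, and Ero1a, an ER oxidase that is also an ATF4 target, at 0.64. Herpud1, which serves ER-associated degradation, was at 312 and 308 CPM against 353 and 362, a small difference of -0.20, with 76.4 and 73.8 in control cells. Of the 19 genes of ER-associated degradation 6 were higher and 9 lower.

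The ER stress element, which ATF6 is known to bind together with the factor NF-Y, was searched as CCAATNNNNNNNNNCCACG on both strands of the same promoters. It stood in 8 of the 20 listed ER genes with a promoter (40%), in 0 of the 32 ATF4 targets and in 0.137% of all genes with a promoter. Among genes called at least 2-fold lower 0.645% held it, and among those called at least 2-fold higher 0.211%. The holders were Hspa5, Hsp90b1, Calr, Canx, Pdia6, Dnajc3, Creld2 and Ero1b, while Pdia4, with a larger difference than any of them, had no match to these letters. Hspa5, Pdia6, Creld2 and Calr are shown because they carry the element on either strand, with differences of -1.65, -2.16, -2.14 and -1.34. Hspa5 lies on the plus strand at chr2:34772000-34772068, Pdia6 on the plus strand at chr12:17266466-17266534, Creld2 on the plus strand at chr15:88819495-88819563 and Calr on the minus strand at chr8:84847050-84847118. Capitals mark the matches, which in Creld2 and Calr are on the other strand.
Hspa5: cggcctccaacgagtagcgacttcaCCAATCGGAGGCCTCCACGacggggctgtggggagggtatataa
Pdia6: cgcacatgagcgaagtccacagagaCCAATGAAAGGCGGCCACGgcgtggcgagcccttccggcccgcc
Creld2: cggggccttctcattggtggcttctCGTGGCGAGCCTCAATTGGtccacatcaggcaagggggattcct
Calr: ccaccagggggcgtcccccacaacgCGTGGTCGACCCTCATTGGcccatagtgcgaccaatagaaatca

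The sensors and factors of the unfolded protein response did not share the direction of the chaperones. Of 12 tested, 4 were higher and 5 lower. Ern1, the sensor IRE1, was at 216 and 199 CPM without amino acids against 51.2 and 52.1, with 36.5 and 38.1 in control cells, and Atf6 was at 258 and 250 against 104 and 100. Xbp1, the factor whose mRNA IRE1 splices, was lower, at 35.5 and 35.7 CPM against 110 and 108. The counts per gene do not separate spliced from unspliced Xbp1. Creb3l2, a related membrane-bound factor, differed by -1.47, and the PERK gene Eif2ak3 by -0.37.

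Genes that move and glycosylate secreted proteins were mostly lower. Of 31 genes of the ER translocon and of COPII vesicles 2 were higher and 21 lower, with a median of -0.31, and of 30 genes of N-glycosylation 6 were higher and 21 lower, with a median of -0.40. Sec61b, a translocon subunit, was at 21.5 and 20.9 CPM against 57 and 59.8. Ostc, a subunit of the oligosaccharyltransferase, was at 27.1 and 29 against 80.4 and 87.6, and Alg5, which makes dolichol-linked glucose, at 16.4 and 15.2 against 49.5 and 49.4. The ranges of these genes did not overlap between the starvations, as was so for 81.9% of all tested genes.

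The hexosamine pathway, which makes the sugar nucleotide UDP-GlcNAc, was split by role. Of 12 genes 8 were lower and 2 higher. Gfpt1, the rate-limiting enzyme, was at 58.8 and 54.3 CPM against 125 and 128, and Amdhd2, which acts in the reverse direction, at 10.7 and 9.83 against 45.5 and 40.8. The 2 higher genes were those that put O-GlcNAc on proteins and take it off. Ogt, the transferase, was at 621 and 613 CPM against 226 and 222, and Oga, the hydrolase, at 410 and 419 against 64.3 and 67.1, with 96.8 and 104 in control cells.

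Every one of the 25 genes tested for cholesterol synthesis and uptake was lower without amino acids, 24 of them at least 2-fold, with a median of -2.30. Hmgcs1, an early enzyme of the pathway, was at 31.3 and 32.3 CPM without amino acids, at 242 and 248 without glucose and at 109 and 115 in control cells. Nsdhl, which acts late in it, was at 7.61 and 6.46 CPM against 72.2 and 74.5, with 31.8 and 31.6 in control cells. In both genes the control lay between the starvations, and the difference was -2.94 for Hmgcs1 (standard error 0.06, edgeR adjusted p = 1.02e-24) and -3.39 for Nsdhl. The factor Srebf2 differed by -1.22 and the phosphomevalonate kinase Pmvk, the only member under 2-fold, by -0.89.

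Fatty acid synthesis had the same direction in 12 of 14 genes, with a median of -0.94. Scd2, a desaturase, was at 123 and 124 CPM without amino acids, at 1163 and 1169 without glucose and at 1043 and 1095 in control cells, so that only the amino acid libraries stood apart from the rest. Elovl6, which elongates saturated fatty acids, was at 7.18 and 7.78 CPM against 71.4 and 76.8, with 72.2 and 77.7 in control cells. The desaturases Fads2 and Fads1 differed by -1.54 and -1.11, and fatty acid synthase (Fasn) by -0.94. The 1 higher gene was Acacb, the mitochondrial form of acetyl-CoA carboxylase, at 2.17, and Me1 was not called. A sterol element searched as TCACNCCAC on both strands stood in 1 of the 17 cholesterol genes with a promoter (5.88%), which was Hmgcs1. Of all genes with a promoter, 1.44% held this element. It stood in 1.37% of genes called at least 2-fold lower, 1.62% of those called at least 2-fold higher, 1.41% of tested genes and 5% of the ER genes. The promoter stretch of Hmgcs1 lies on the plus strand at chr13:119690189-119690247, with the match in capitals.
Hmgcs1: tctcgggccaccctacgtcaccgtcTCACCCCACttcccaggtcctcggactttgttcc

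Of 8 tested genes of the axis of MondoA and ChREBP, which sense glucose, 4 were higher and 3 lower. Txnip, an arrestin-like brake on glucose uptake that MondoA is known to drive, was at 30.7 and 34.9 CPM without amino acids, at 0.52 and 0.69 without glucose and at 9.6 and 8.28 in control cells. Its difference was 5.74 (standard error 0.18, edgeR adjusted p = 1.2e-20), with the amino acid libraries above and the glucose libraries below the control. Arrdc4, its relative and another MondoA target, was low at 6 h, at 0.94 and 1.27 against 0.63 and 0.54, and its call (0.92, edgeR adjusted p = 0.0281) was lost when a single library was left out in 3 of 4 cases. The 3 lower members were Arrdc3, of the same arrestin-like family, at 2.06 and 1.72 CPM against 5.61 and 7.18, with a difference of -1.77, Mlx, the partner of MondoA, at -0.69 and Tkfc at -0.64.

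Of 29 genes of glycolysis and glucose uptake 22 were lower without amino acids and 4 higher, with a median of -0.43. Slc2a1, the glucose transporter GLUT1, was at 63.6 and 62.2 CPM against 106 and 113, with 57 and 64.9 in control cells, and the hexokinase Hk2 at 81.5 and 79.9 against 114 and 117. The largest differences were in regulators, with the pyruvate dehydrogenase kinase Pdk1 at -1.68 and the phosphofructokinase regulator Pfkfb4 at -1.51. Pdk4, another such kinase, was higher, at 14.5 and 14.5 CPM against 5.38 and 5.25. In the pentose phosphate pathway 6 of 7 genes were lower and 0 higher, led by G6pdx, which commits glucose to it, at 50.7 and 50.4 CPM against 107 and 112.

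Autophagy genes leaned higher without amino acids, with 26 of 45 higher, 12 lower and a median of 0.27. Sqstm1, the cargo receptor p62, was at 1235 and 1252 CPM without amino acids, at 454 and 451 without glucose and at 256 and 238 in control cells, a difference of 1.46. Ulk1, the kinase that starts autophagy, was at 78.4 and 79.5 CPM against 29.2 and 28.9, with the control between at 49.2 and 48.7. Map1lc3b, the LC3B protein of the autophagosome membrane, was at 230 and 222 CPM against 103 and 108, where the glucose libraries were close to the control at 106 and 107. Gabarapl1, Uvrag and Nbr1 differed by 1.44, 1.31 and 1.30. The lower members included the proteases that trim LC3, Atg4c at -1.18 and Atg4a at -1.03, and the mitophagy receptor Fundc1 at -1.17. RNA levels do not measure autophagic flux.

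Lysosomal genes and targets of TFEB, which drives lysosome formation, were divided, with 20 of 47 higher and 18 lower. Beside Cln3, the higher members included Fnip1, a partner of folliculin in mTORC1 control, at 244 and 237 CPM against 87.8 and 86, and the proton pump subunit Atp6v1b2 at 226 and 224 against 121 and 125. Among the lower ones was the hydrolase Gusb at 21.9 and 22.5 CPM against 57.6 and 60.9. Tfeb had a difference of 0.15 and was not called.

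**Figure D4:**
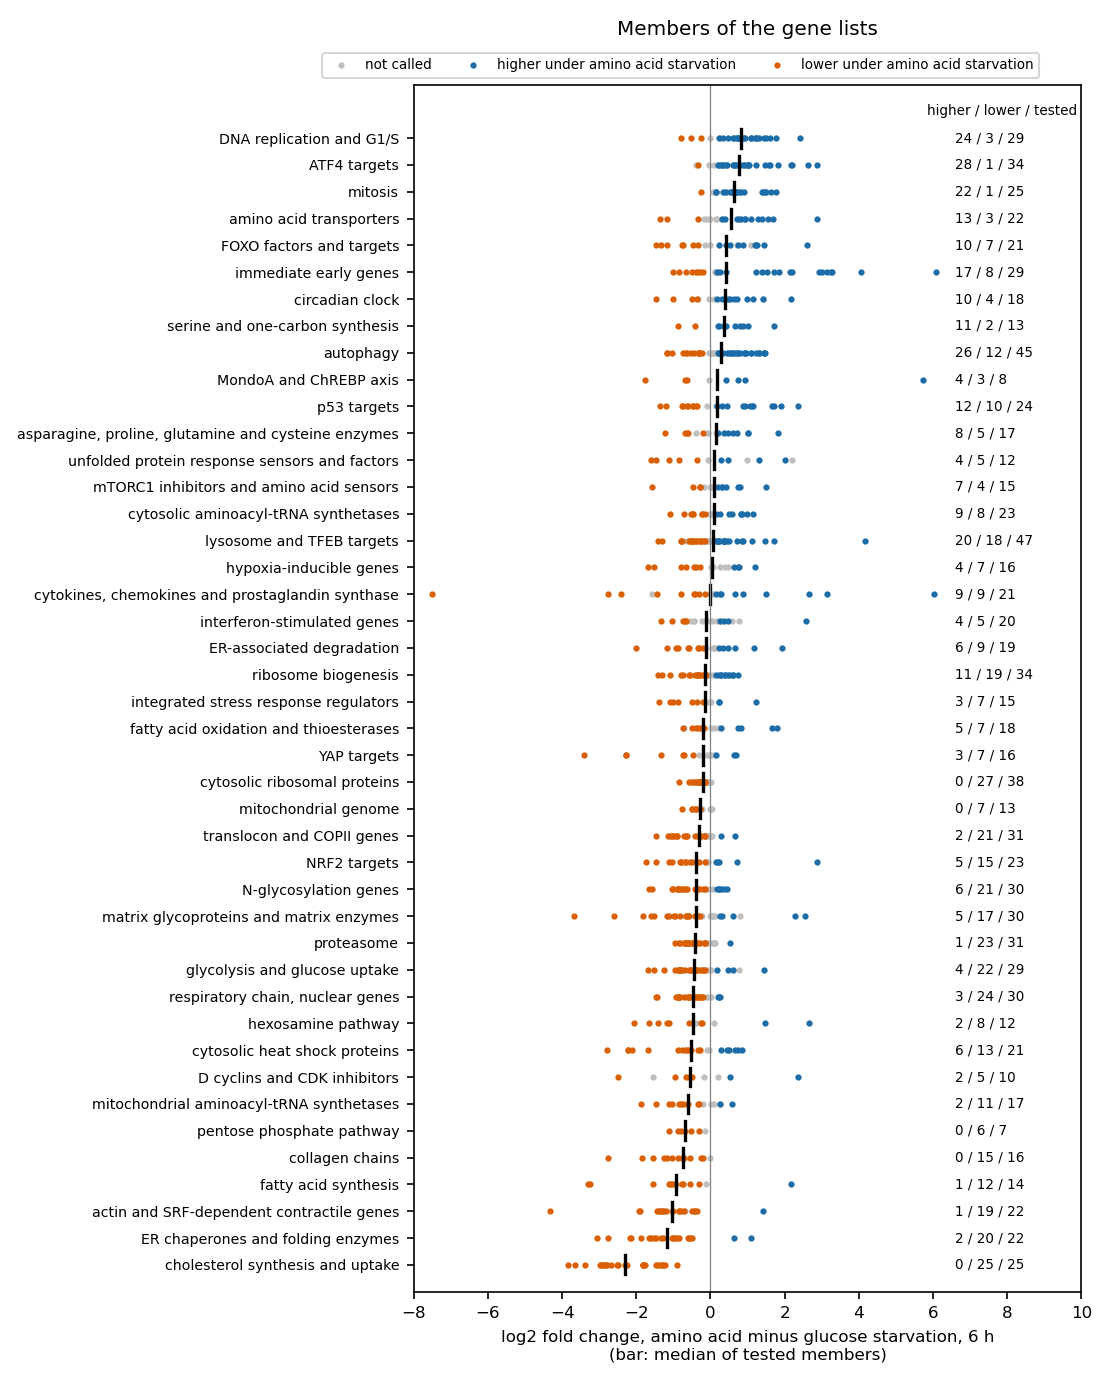
Differences (log2, horizontal axis) of the tested members of 43 gene lists as points, blue if called higher, orange if called lower and grey if not called, with a bar at the median and the counts called higher, called lower and tested on the right. Cholesterol genes are at the bottom with all 25 members lower, and DNA replication at the top with 24 of 29 higher. The outermost 2 points of the cytokine list are Cxcl5 and Cxcl2, which are near 0 CPM in 1 of the groups, so that their fitted values depend on the prior count of the fit.

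Immediate early genes, which respond to signals without new protein synthesis, included Egr1 but were not uniform. Of 29 members 17 were higher, 14 of them at least 2-fold, and 8 were lower, with a median of 0.43, or 0.75 without overlapping genes. After Egr1 came Egr2 at 4.06, Egr3 at 3.27, Fosb at 3.26 and Fos at 3.14. Maff was at 269 and 280 CPM against 33 and 34.9, Fosl1 at 410 and 402 against 140 and 141, and Junb at 162 and 181 against 47.3 and 47.2. Ier3, the factor Srf and Fosl2 were lower, at -1.01, -0.84 and -0.67. Myc had a small difference of 0.17, at 306 and 303 CPM against 276 and 267, and that call was lost in 2 of the 4 fits without a single library.

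Genes of cell division were higher without amino acids, while the D cyclins were lower. Of 29 genes of DNA replication and the G1/S step 24 were higher and 3 lower, with a median of 0.83, and of 25 genes of mitosis 22 were higher and 1 lower, with a median of 0.63. Mcm10, a DNA replication factor, was at 214 and 221 CPM against 81.1 and 79.1, with 87.8 and 82.9 in control cells. Cdc45, of the replicative helicase, was at 160 and 162 CPM against 49.8 and 44.9, and the mitotic kinase Aurka at 189 and 188 against 54.5 and 56.7, with 100 and 107 in control cells. The 1 lower mitosis gene was Ccnb2, at -0.24.

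Cyclin D1 (Ccnd1), which carries growth signals into the cell cycle, was at 44.7 and 40.4 CPM without amino acids, at 232 and 243 without glucose and at 254 and 246 in control cells, a difference of -2.48. Ccnd2 and Ccnd3 differed by -0.51 and -0.58. Cdkn1a, the CDK inhibitor p21, was higher, at 212 and 217 CPM against 42.2 and 41.6, with 24.6 and 23.9 in control cells. The whole list of D cyclins and CDK inhibitors, with 10 tested, had 2 higher and 5 lower. Its median was -0.55, or -0.15 without overlapping genes. Targets of p53, which include Cdkn1a, were split into 12 higher and 10 lower of 24. RNA levels do not give the share of cells in a cycle phase, and their number was not measured here.

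Genes of the actin cytoskeleton, many of which depend on the serum response factor SRF, were lower in 19 of 22 cases and higher in 1, with a median of -1.03. Actb was at 1134 and 1140 CPM without amino acids, at 4378 and 4302 without glucose and at 3003 and 2979 in control cells. Actg1 was at 1113 and 1126 CPM against 4119 and 4178, and the actin-binding Tagln2 at 202 and 208 against 494 and 505. For these 3 genes the amino acid libraries lay below the control and the glucose libraries above it. Actb, often used as a reference gene, thus differed by -1.93 between the starvations. The 1 higher member, Vil1, differed by 1.41. Targets of the mechanosensitive factor YAP were lower in 7 of 16 cases and higher in 3, with Ccn1 at 119 and 112 CPM against 560 and 566 and Ccn2 at 88.6 and 84.7 against 420 and 428.

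Of 16 listed collagen chains 15 were lower and 0 higher, with a median of -0.75. Col11a2, a collagen chain among the highest genes above, with a difference of 5.03, is not on this list. Col1a1 was at 705 and 694 CPM without amino acids, at 1689 and 1664 without glucose and at 2486 and 2219 in control cells, the highest of the 3 conditions. Col1a2 was at 197 and 202 CPM against 724 and 714, with 1192 and 1118 in control cells. Of 30 matrix glycoproteins and matrix enzymes 5 were higher and 17 lower, among them the protease inhibitor Timp3 at 545 and 554 CPM against 1917 and 1970. Fibroblast markers, a list that includes 3 collagens, moved with these genes, with 8 of 12 tested lower and 1 higher. Their summed level was 5130 and 5000 CPM without amino acids, 8000 and 7790 without glucose and 8750 and 7970 in control cells. These sums use library totals without TMM factors, so they are not on the scale of the collagen levels above. The factors were 0.9706 and 0.9531 for the glucose libraries and 1.052 and 1.055 for the controls. The order of glucose and control libraries in these sums therefore depends on the scaling. The part of cell composition in these differences was not tested.

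Protein quality control in the cytosol was also lower on balance. Of 21 heat shock genes 6 were higher and 13 lower, with a median of -0.52, or -0.26 without overlapping genes. Hspa8, the constitutive chaperone HSC70, was at 1162 and 1153 CPM without amino acids, at 4950 and 5092 without glucose and at 3904 and 3802 in control cells, a difference of -2.12. The inducible Hspa1b was at 8.81 and 9.74 CPM against 43.1 and 43.8. Hspa9, the HSP70 of mitochondria, was higher, at 2038 and 2059 CPM against 1126 and 1155. Of 31 proteasome genes 23 were lower and 1, Psmc6, was higher, with a median of -0.42, and the 23 all differed by less than 2-fold.

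Genes of ribosomal proteins and of the respiratory chain were lower more often than higher. Of 38 cytosolic ribosomal protein genes 27 were lower, 0 were higher and 0 differed by 2-fold, with a median of -0.20. Rpl6 was at 1138 and 1130 CPM against 1565 and 1592. Among 34 genes of ribosome biogenesis 11 were higher and 19 lower, 3 of them at least 2-fold. Of 30 nuclear genes of the respiratory chain 24 were lower, 2 of them at least 2-fold, and 3 higher, with a median of -0.46, led by Ndufb10 at 23.4 and 22.3 CPM against 62.6 and 65. Of 13 transcripts of the mitochondrial genome 7 were lower and 0 higher, with mt-Co1 at 10260 and 10670 CPM against 17400 and 18110. The mitochondrial share of reads given above moves with them.

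Smaller lists gave mixed directions. NRF2 targets, which protect from oxidation, were lower in 15 of 23 cases and higher in 5, although Slc7a11 belongs to both this list and that of ATF4. FOXO factors and targets were higher in 10 of 21 cases and lower in 7, with the cyclin Ccng2 at 44.4 and 46.1 CPM against 7.62 and 7.45. Of 18 clock genes 10 were higher and 4 lower. Nr1d2, a repressor of the clock, was at 241 and 246 CPM against 52.7 and 56, and Arntl, the activator BMAL1, at 84.6 and 86.8 against 45.2 and 41, with 8.83 and 8.15 in control cells. Hypoxia-inducible genes were higher in 4 of 16 cases and lower in 7. Interferon-stimulated genes were higher in 4 of 20 and lower in 5, with the RNA sensor Ifih1 at 16.4 and 15.7 CPM without amino acids, near the 14.3 and 14.8 of the controls, against 2.82 and 2.58 without glucose. Of 21 cytokine and chemokine genes 9 were higher and 9 lower, with 4 at least 2-fold in each direction. Among the lower ones Cxcl12, a chemokine of fibroblasts, was at 29.7 and 27.5 CPM against 193 and 194.

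The contrast at 6 h was set beside those at 3 h and 12 h, which used other libraries. At 3 h 54.4% of tested genes were called, 26.7% higher and 27.7% lower, and at 12 h 64.1%, 32.5% higher and 31.6% lower. Of genes higher without amino acids at 6 h, 68.9% were also called higher at 3 h, which is 81.3% of those higher at 3 h, and 70% were also higher at 12 h, which is 67.7% of those higher at 12 h. Of genes lower at 6 h, 67.5% were lower at 3 h and 69.6% at 12 h, or 78.8% and 71.3% of the lower genes at those times. Across all tested genes, which are not independent replicates, the differences at 6 h correlated with those at 3 h at r = 0.65 and with those at 12 h at r = 0.65. The size of the difference itself changed by test for 5105 genes (28.8%) between 3 h and 6 h and for 6987 (39.5%) between 6 h and 12 h. These 2 tests share the 6 h libraries. At 6 h 12.5% of tested genes had a higher and 16.3% a lower value than at 3 h, and changes of at least 2-fold were called for 5.55%, 2.35% higher and 3.2% lower. Calls of any size were 2214 higher and 2891 lower than at 3 h, but 2783 and 2429 with library totals in place of TMM factors. Which direction was more frequent therefore depends on the scaling. Against 12 h the shares were 21.6% higher and 17.8% lower, with 9.35% changed at least 2-fold, 4.5% higher and 4.84% lower. Of the 6987, 3829 had a higher value at 6 h than at 12 h and 3158 a lower one, but with library totals in place of TMM factors it was 2432 and 4864. That scaling moved the median change of all genes between 12 h and 6 h from 0.01 to -0.17, so changes of about that size or less have no settled direction.

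Sterol, contractile and mitotic genes had larger differences at 6 h than at 3 h. For cholesterol genes the median difference was -0.73 at 3 h, -2.30 at 6 h and -1.74 at 12 h, and all 25 were lower at 6 h than at 3 h by the test of the change. Scd2 went from -0.47 at 3 h to -3.25 at 6 h, and Elovl6 from -0.08 to -3.30. For actin genes the median went from -0.27 to -1.03 and then to -1.67 at 12 h, with 19 of 22 lower at 6 h than at 3 h and 0 higher. The median of mitosis genes was 0.25 at 3 h, 0.63 at 6 h and 1.33 at 12 h, with 20 of 25 higher at 6 h than at 3 h and 19 lower at 6 h than at 12 h. ER genes had medians of -0.79, -1.16 and -1.64 at the 3 times, and 17 of 22 were lower at 6 h than at 3 h, with 1 higher.

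The median of ATF4 targets was 0.83 at 3 h, 0.78 at 6 h and -0.10 at 12 h. Between 6 h and 12 h, 30 of the 34 had a higher value at 6 h and 1 a lower one, or 27 and 1 with library totals. Atf3 turned from 1.0 at 6 h to -1.57 at 12 h, and Ddit3 from -0.33 to -1.68, having been 0.41 at 3 h. Immediate early genes were furthest apart at 3 h, with a median of 1.5 against 0.43 at 6 h and 0.65 at 12 h. Of 17696 tested genes, 304 were called in opposite directions at 3 h and 6 h, with a called change between the times. At a mean log2 CPM of at least 3 in the 6 h libraries, 9 of them differed by at least 1.5-fold at both times. These 9 were chosen after their values were seen. Adamts5, Shank2, Mllt3, Erf, Cited2 and Fmn1 were higher without amino acids at 3 h and lower at 6 h, and Gas2l3, Ranbp6 and Arhgef39 were the reverse.

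**Figure D5:**
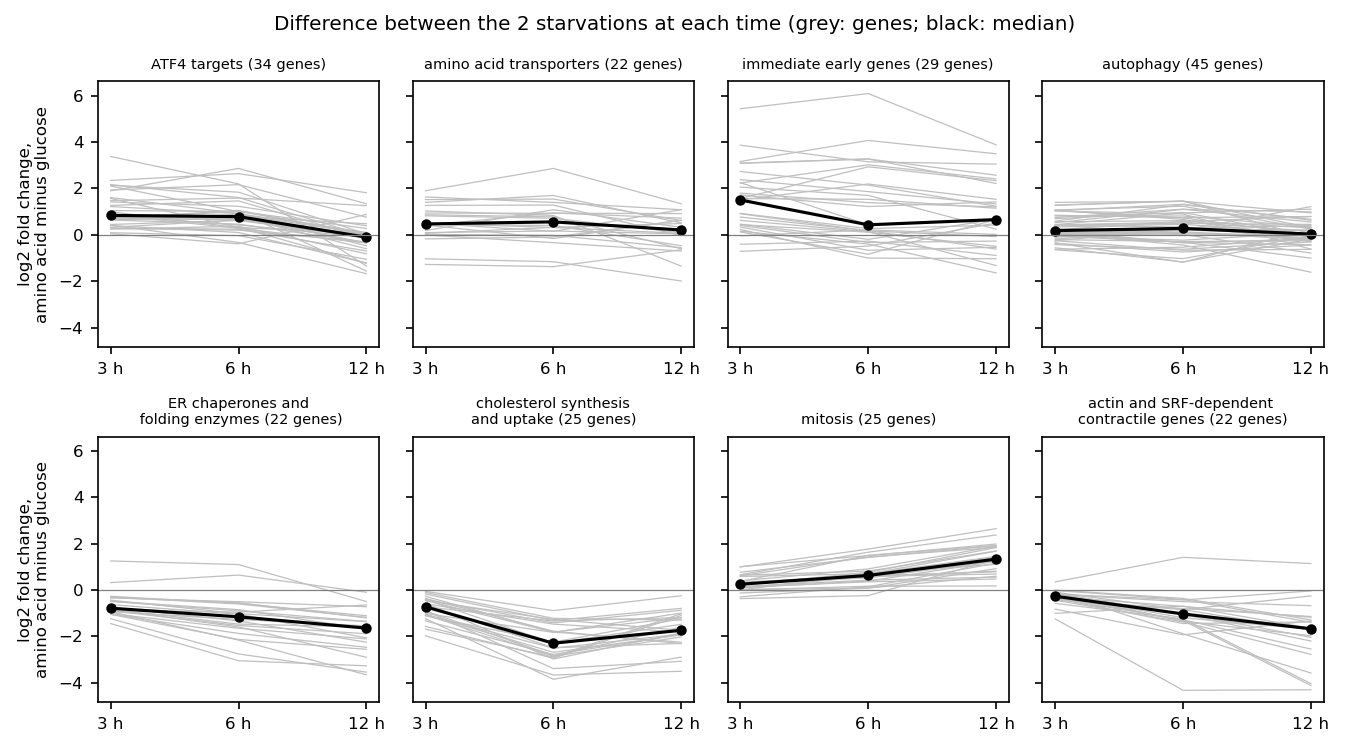
Difference between amino acid and glucose starvation (log2, vertical axis) at 3, 6 and 12 h for the tested members of 8 gene lists, with each gene as a grey line and the median in black. The cholesterol median is lowest at 6 h (-2.30), the mitosis and actin medians move away from 0 at each time, and the median of ATF4 targets falls from 0.78 at 6 h to -0.10 at 12 h.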

How the data were processed

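The 14 libraries of total RNA fall into 7 groups of 2 by the sample labels. The deposited table holds whole-number read counts per transcript, which the authors did not normalise as far as the values show. Build GRCm39, the aligner STAR and bedtools are named, per the submitters' processing notes, with versions, annotation, counting rules and use of strand not given in the sources used here. For each gene symbol the transcript with the most reads over the 14 libraries was used, since rows of 1 gene largely repeat each other. Blank gene names held 0% of reads.

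In edgeR 4.0.16 (R 4.3.3), counts went through filterByExpr (17696 genes), TMM scaling, and a robust quasi-likelihood fit of 7 group means over all libraries with 7 residual degrees of freedom and a two-sided test with Benjamini-Hochberg adjustment over all genes. The biological coefficient of variation was 5.78%. Standard errors are the absolute log2 fold change over the square root of F. The script was tested on simulated data. GRCm38 sequences served for GC content, length, overlaps and promoters, since no coordinates of the counts' build were used. Exons of 7468 tested genes (42.2%) overlap another gene, so that their reads may not be theirs alone. Among the genes of the lists and of the naming rule that the text names, these are Actg1, Akt1s1, Apobr, Arntl, Atf5, Cars2, Ccn2, the D cyclins, Cdc45, Cdkn1a, Cebpb, Cln3, Ddit3, Dlk2, Dnajb9, Eif2ak3, Elovl6, Fn1, Fosl1, G6pdx, Gabarapl1, Gask1b, Hmgcs1, Hsp90b1, Hspa8, Junb, Map1lc3b, Mast1, Me1, Mlx, mt-Co1, Mthfd1, Ndrg1, Oga, Pck2, Pdia4, Pdia6, Ppp1r15a, Ppp1r15b, Psd, Rpl6, Scd2, Slc2a1, Slc6a6, Slc6a9, Slc7a2, Sqstm1, Timp3, Tkfc, Txnip, Uvrag and Vil1.

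The members and the 51 gene lists (1057 entries, 1054 in the table) were chosen with earlier results of these data known. Lists are described by counts and medians, with no set test. Named genes are a panel of 32, the 10 highest and 10 lowest differences among called genes (mean log2 CPM 3 or more, libraries not overlapping, no provisional symbol), and in each list the 4 or fewer called members of lowest p. Some of the 195, among them 3 of the 10 lowest, are not reported here. Other members were named after their values were seen. Alternatives were RLE factors, library totals, DESeq2 1.42.0, no filter or a stricter one (CPM of 1 in 4 libraries), only the 4 libraries, a replicate block, each library left out, the mean of transcript rows, a GC and length correction, and overlapping genes left out.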

Additional observations from a re-analysis of the deposited data

Results flagged for a closer look

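For 13 genes of the panel the difference between the starvations at 6 h was itself different, by at least 2-fold and by edgeR's test of the change, from that at 3 h or at 12 h. Values are the log2 difference at 6 h minus that at the other time. Against 3 h, the value was -2.77 for Scd2, -1.52 for Pdia4, -1.50 for Hspa8, -1.37 for Hmgcs1, -1.27 for Ccnd1 and -1.10 for Atf3. In the first 5 of these the glucose libraries stood further above the amino acid libraries at 6 h than at 3 h. In Atf3 the amino acid libraries stood above the glucose libraries at both times, by 2.10 at 3 h and 1.0 at 6 h.

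Against 12 h, the value was 2.56 for Atf3, 2.21 for Egr1, 1.69 for Herpud1, 1.6 for Sqstm1, 1.59 for Dnajb9, 1.58 for Hspa8, 1.52 for Slc7a11, 1.34 for Ddit3 and 1.31 for Hsp90b1. Hmgcs1 had the opposite sign, at -1.84. Among all genes tested, 5.55% had a change of at least 2-fold between 3 h and 6 h and 9.35% between 6 h and 12 h.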

How the results depend on the processing

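Under the alternatives other than leaving out overlapping genes, the count of genes called at 6 h stayed within 1.5 times of 11294. It was 9973 to 10212 when each library was left out in turn, with 4875 to 5089 higher and 5020 to 5278 lower, and 3769 to 3915 at least 2-fold (1947 to 2050 higher and 1822 to 1902 lower). Where a group was left with 1 library, that library was assumed to vary like the other groups. Without overlapping genes 10228 genes were tested, and the counts were 6583 called, 3316 higher and 3267 lower, with 2518 at least 2-fold, 1326 higher and 1192 lower, as fewer genes were tested. With library totals, 2432 genes were higher and 4864 lower at 6 h than at 12 h, 526 and 1322 of them by 2-fold. Against 3 h, library totals gave 2783 higher and 2429 lower, 492 and 482 of them by 2-fold. Calls of change without 1 library numbered 4105 to 5091 between 3 h and 6 h (1670 to 2166 higher, 2316 to 2925 lower, 877 to 1050 at least 2-fold, 346 to 436 and 512 to 614 by direction), and 6053 to 6284 between 6 h and 12 h (3289 to 3484, 2619 to 2859, 1510 to 1593, 710 to 781 and 768 to 816). Atf4 ranged from -0.00865 to 0.129 over all alternatives. With each library left out in turn it ranged from -0.00865 without the first glucose library to 0.0425 without the second, and the fit on library totals gave 0.0708, that corrected for GC content and length 0.129. The cause was not tested. GC and length correction gave 11335 calls, 12 of them opposite in sign to the main ones.

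Libraries with equal replicate numbers had no clear shared deviation in their counts, which does not show whether they were paired by culture. The deviations of same-numbered libraries correlated at -0.02 between the groups compared and at -0.04 to 0.05 over all 21 pairs of groups. With the replicate number as a block 11386 genes were called, of which 11241 were also called without it, or 99.5% of those.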

Other observations

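Some families outside the lists were counted after their values were seen. Mitochondrial ribosomal proteins were lower without amino acids in 52 of 78 tested genes and higher in 7, with a median of -0.46. Tubulins were lower in 9 of 11 and higher in 0, with a median of -1.04, and subunits of initiation factor 3 were lower in 11 of 12, with a median of -0.33. Histone lysine demethylases of the Kdm family were higher in 13 of 18 cases and lower in 1, with a median of 0.67. Kinesins were higher in 20 of 35 and lower in 8, and zinc finger genes with a 3-digit Zfp name higher in 121 of 298 and lower in 65. The sign of these medians was the same with RLE factors, with library totals, after GC and length correction and without overlapping genes.

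Cln3, Apobr, Il27, Nupr1 and Sgf29 follow each other on mouse chromosome 7 in the RefSeq annotation of GRCm38.p6, and all 5 were called higher without amino acids, with differences of 4.16, 3.75, 4.13, 2.16 and 0.48. Il27 was low throughout, at 3.26 and 2.47 CPM against 0.23 and 0.1. The genes next to Cln3 on the far side were not higher. Eif3c and Tufm were lower, at -0.21 and -1.0, and Atxn2l, at -0.10, was not called. Exons of Cln3, Apobr, Il27 and Sgf29 overlap another gene, and the counts are not stated to use strand. The part of reads shared between neighbours in these differences was not tested.

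At 6 h and 12 h, 814 of the 17696 tested genes were called in opposite directions, with a called change between the times. At a mean log2 CPM of at least 3 in the 6 h libraries, 41 of them differed by at least 1.5-fold at both times. Ndrg1 went from 0.78 to -1.92, the glycine carrier Slc6a9 from 0.83 to -1.35, Dhrs9 from 1.69 to -1.16, the receptor Egfr from 0.99 to -0.66 and Srf from -0.84 to 0.65.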
